A study of Mus musculus with 198 samples.

Results

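Tet1, Tet2 and Tet3 encode the Tet dioxygenases, and their methylation in mouse cortex was taken from the 3 rows of those names among 34193 gene rows in a table of whole-genome bisulfite sequencing. All 3 rows had a value in each of 8 animals, as had 21302 genes for methylation at CA sites (mCA) and 21060 for methylation at CG sites (mCG). The animals were C57BL/6J mice of 8 weeks, of which 4 carried a heterozygous knockout of Dnmt3a (hKO) and 4 were wild type (WT). How the knockout allele was made, and in which cells it acts, is not given in the sources used here. Replicates 1 and 2 of each genotype were male and replicates 3 and 4 female. The labels of the females name a further sequencing instrument, so sex and instrument cannot be told apart. Each animal gave 1 library of whole cortex at a labelled coverage of 6.4 to 7.8 genome equivalents. The other 190 of the 198 samples hold no value per gene and were not used here.

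Tet enzymes oxidise the methyl group of methylcytosine to hydroxymethylcytosine and then to formylcytosine and carboxylcytosine, with iron and 2-oxoglutarate as cofactors. The last forms are cut out by thymine DNA glycosylase and repaired to plain cytosine, which makes the family the entry point of active demethylation. Dnmt3a, the enzyme lacking 1 copy in the hKO mice, works in the opposite direction and writes most CA methylation in maturing neurons. Tet1 and Tet3 can carry a CXXC domain that binds CG-rich DNA, whereas Tet2 lacks one and works with the separate protein of Cxxc4. Bisulfite sequencing reads methylcytosine and hydroxymethylcytosine alike, so every level given here is the sum of both. The values are methylation of the genes' own DNA and not their expression. Cortex is a mixture of cells, and fewer methylated cells cannot be told apart from less methylation per cell.

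The sequence around the start of each gene shows how differently the CG context is spread over the family. The windows below run from 250 bases before to 50 bases after the start in RefSeq, build GRCm38.p6, with every CG in capitals. They lie on the minus strand at chr10:62887275-62887574 for Tet1, chr3:133544341-133544640 for Tet2 and chr6:83441629-83441928 for Tet3. The deposited values are on mm9 and per gene, so they give no value for these windows.
Tet1: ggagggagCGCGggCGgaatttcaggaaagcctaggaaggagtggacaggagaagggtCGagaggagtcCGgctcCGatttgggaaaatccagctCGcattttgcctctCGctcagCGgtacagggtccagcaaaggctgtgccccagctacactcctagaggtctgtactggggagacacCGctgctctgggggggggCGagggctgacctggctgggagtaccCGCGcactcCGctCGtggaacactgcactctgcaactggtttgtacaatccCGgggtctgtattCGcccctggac
Tet2: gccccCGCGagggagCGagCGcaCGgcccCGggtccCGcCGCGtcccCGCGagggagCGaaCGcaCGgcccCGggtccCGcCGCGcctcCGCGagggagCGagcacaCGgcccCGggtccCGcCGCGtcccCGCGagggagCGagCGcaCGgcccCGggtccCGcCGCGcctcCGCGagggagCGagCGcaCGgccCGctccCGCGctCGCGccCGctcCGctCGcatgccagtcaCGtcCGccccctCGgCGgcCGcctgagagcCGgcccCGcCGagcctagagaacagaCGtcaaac
Tet3: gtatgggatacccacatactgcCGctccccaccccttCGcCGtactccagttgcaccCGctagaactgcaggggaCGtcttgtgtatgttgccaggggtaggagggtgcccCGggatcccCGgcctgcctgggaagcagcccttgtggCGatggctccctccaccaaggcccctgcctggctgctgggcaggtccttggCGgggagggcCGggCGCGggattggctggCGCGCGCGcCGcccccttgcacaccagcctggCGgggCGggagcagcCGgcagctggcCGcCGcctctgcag
The Tet2 window held 57 CG sites, more than 99.8% of 32851 promoter windows of the same length, and was 81.3% G and C. In the Tet1 and Tet3 windows there were 17 and 22 CG sites, more than in 68.6% and 76.9% of windows, against a median of 7. CA sites, counted on both strands as CA or TG, numbered 35, 13 and 42 for Tet1, Tet2 and Tet3, against a median of 41. At least 1 CG was present in 94.6% of all promoter windows. Counts are of letters only and say nothing of methylation there.

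Over the whole gene row the order was another. The factor that links methylated fraction to methylated sites per length in the authors' deposited table gives the sites per base of a gene. The columns per length are named per kilobase, but their values were read as sites per base, and every density and value per length given here rests on that reading. Whether the factor counts 1 strand or both is not given. Its CA median of 15.3 per 100 bases lies near the both-strand median of 41 CA sites in windows of 300 bases. If both strands are counted, each CG counts once per strand, whereas the windows above count it once. The CG densities are therefore not to be set against the window counts. The factor was the same in both genotypes within 0.1% for 99.7% of 21048 genes in the CG context. It implied 1.62 CG sites per 100 bases in Tet2, which was higher than in 32.2% of genes. Tet1 had 2.38 and Tet3 2.74 CG sites per 100 bases by the same factor, higher than in 63.2% and 75.3% of genes, with a median of 2.04. Tet2, with the densest start, was thus the member with the fewest CG sites per length. CA sites were nearly equal, at 15.2, 15.3 and 15.8 per 100 bases in Tet1, Tet2 and Tet3 against a median of 15.3.

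mCA was highest in Tet1, intermediate in Tet2 and lowest in Tet3, and this order held in every animal of both genotypes. Measured as percent of CA cytosines, Tet1 lay above Tet2 by 0.584 points ± 0.228 (SD, n = 8) and above Tet3 by 1.05 points ± 0.357 (SD, n = 8). Tet2 lay above Tet3 by 0.469 points ± 0.174 (SD, n = 8). Each of these within-animal differences had an exact two-sided sign-flip permutation p = 0.0078, the smallest that 8 animals allow, and the same value after adjustment over 6 comparisons. Between animals of 1 genotype, neighbours in the order could be close: the highest WT Tet2 value, 2.26%, lay near the lowest WT Tet1 value, 2.44%. In either genotype alone the order was the same, although 4 animals cannot give a p below 0.125. Among all genes, WT Tet1 stood above 64.9%, Tet2 above 45.1% and Tet3 above 29.5% of genes in mCA.

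**Figure D1:**
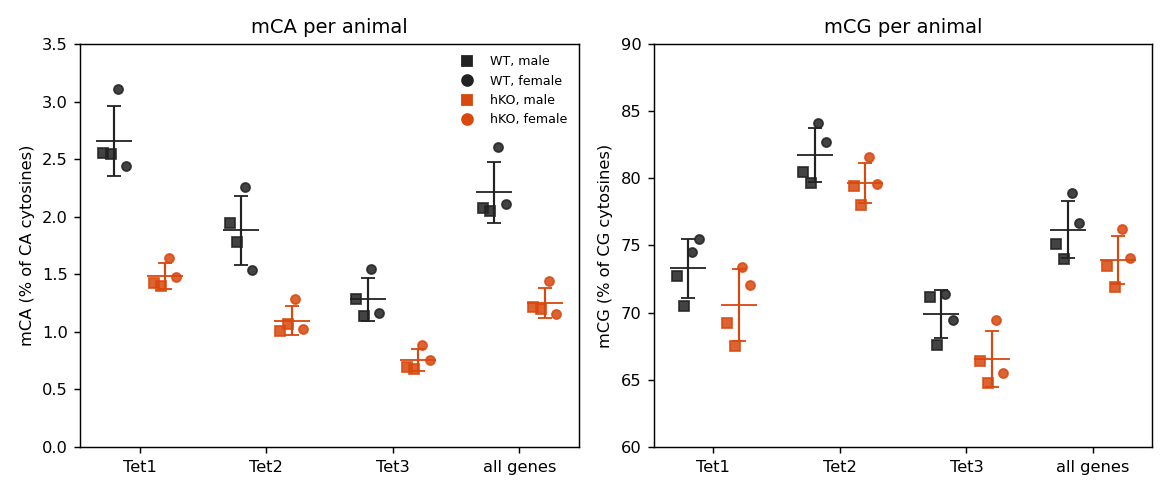
Methylation of Tet1, Tet2, Tet3 and the mean over all genes in each animal, with mCA in percent of CA cytosines on the left and mCG in percent of CG cytosines on the right (that axis starts at 60). Black is WT and orange hKO, squares are males and circles females, and the bars give mean ± SD of 4 animals; the mCA levels of the 2 genotypes do not overlap in any of the 3 genes, while the mCG levels do.

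Between genotypes, mCA was lower in hKO cortex in all 3 Tet genes in absolute level, with differences (hKO minus WT) of -1.17 points in Tet1, -0.785 in Tet2 and -0.529 in Tet3. With the median of each library subtracted, Tet1 still passed as lower but at -0.263 points (limma adjusted p = 0.0166). Tet2 turned to 0.126 points and did not pass (0.258), and Tet3 turned to 0.382 points and passed as higher (0.003). At this setting, which removes the same points from genes of any level, 5283 of 21302 genes passed as lower and 6523 as higher. Tet2 and Tet3 also turned sign in the share of the library mean, where none of the 3 passed. In absolute level, lower mCA was the rule in these libraries. There 72.1% of 21302 genes passed as lower, and the median gene moved by -0.907 points. Only 0.0329% of genes passed as higher in that fit. At an unadjusted p under 0.05, 75.0% of genes were lower, and the hKO mean was below the WT mean in 97.1%. In absolute level the Tet genes are 3 of 3 by each of these counts of lower genes, as most genes were.

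Tet1, the member with the highest mCA, held 2.55%, 2.54%, 3.11% and 2.44% in WT replicates 1 to 4. In hKO replicates 1 to 4 it held 1.42%, 1.40%, 1.64% and 1.48%. The highest hKO animal lay 0.794 points below the lowest WT animal, and replicate 3 was the highest of both genotypes. The mean went from 2.66% ± 0.305 (SD, n = 4) to 1.49% ± 0.110 (SD, n = 4), a change of -1.17 points (SE 0.190, limma adjusted p = 0.00079).

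Tet2 is the family member most often studied in blood cells, and in cortex its mCA was near the middle of all genes. WT replicates 1 to 4 had 1.95%, 1.78%, 2.26% and 1.53%, and hKO replicates 1.01%, 1.06%, 1.28% and 1.03%. The gap between the groups, 0.252 points, was smaller than in Tet1, with WT replicate 4 the nearest to the hKO animals. The difference of -0.785 points (SE 0.178) had a limma adjusted p of 0.0035.

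Tet3, the main Tet enzyme of the oocyte and abundant in neurons, had the lowest mCA of the family. Its WT values were 1.29%, 1.14%, 1.55% and 1.16%, and its hKO values 0.696%, 0.679%, 0.887% and 0.755%. Again replicate 3 was the highest in each genotype and the groups were apart, by 0.251 points. The change was -0.529 points (SE 0.134, limma adjusted p = 0.0062).

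In each Tet gene every hKO animal lay below every WT animal, as in 64.6% of all genes. Exact permutation of genotype over animals (two-sided) gave 0.0286 for each, the smallest p that 4 against 4 animals allow. No difference between the sexes was detected. The changes in males and females were -1.13 and -1.21 points in Tet1, -0.829 and -0.741 in Tet2 and -0.524 and -0.534 in Tet3, and the interaction of genotype with sex, added after the data had been seen, had a limma adjusted p of 1.0 in each. With only the 4 females in the fit the calls were lost, with limma adjusted p = 0.0514, 0.182 and 0.243 for Tet1, Tet2 and Tet3, and with only the 4 males they were kept. WT replicate 3 also had the highest mean mCA over all genes, 2.60% against 2.05% to 2.11% in the other WT animals; without it the differences were -1.02, -0.66 and -0.441 points and all 3 genes still passed.

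As a ratio or share of its own library, no Tet gene was detected to change. The hKO level was 55.9% of WT in Tet1, 58.3% in Tet2 and 58.8% in Tet3, and the median gene stood at 56.6%. Lower ratios were found in 44.6%, 61.0% and 63.9% of genes. As a percent of the library mean over all genes, Tet1 stood at 120% ± 3.81 in WT and 119% ± 6.19 in hKO (SD, n = 4 each). Tet2 stood at 85.02% ± 8.93 and 87.5% ± 2.90, and Tet3 at 57.96% ± 3.31 and 60.3% ± 4.09. The exact permutation tests gave p = 0.771, 0.743 and 0.429 for the 3 genes, and 0.771, 0.771 and 0.729 after adjustment over 6 tests. The differences of -1.34, 2.49 and 2.33 percentage points of the library mean were within the spread of the animals. Without hKO replicate 3 the sign of Tet1 turned (0.355), as did that of Tet2 without WT replicate 4 (-1.64).

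**Figure D2:**
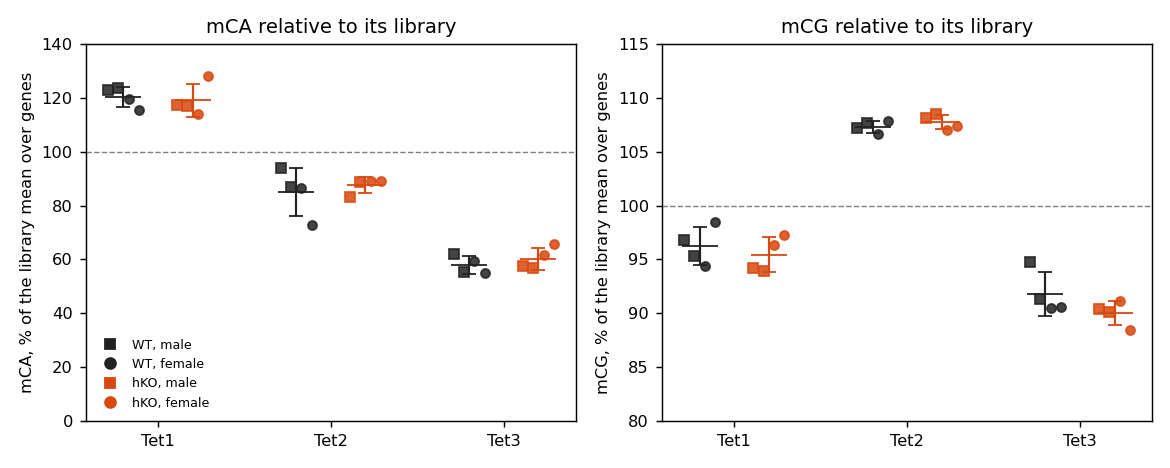
Level of each Tet gene in each animal as a percent of the mean over all genes of the same library, for mCA (left) and mCG (right, axis from 80); symbols and bars are as in the plot of levels and the dashed line marks the mean gene. Tet1 lies above the line in mCA and below it in mCG, Tet2 the other way round, Tet3 below it in both, and the genotypes overlap in each case.

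Whether the 3 genes changed to different degrees was tested on the within-animal differences. In points, Tet1 moved further than Tet2 by -0.389 and further than Tet3 by -0.645. Both had an exact permutation p = 0.0286, the smallest possible, and 0.0857 after adjustment, so neither passed. Tet2 against Tet3 differed by -0.256 points (exact permutation p = 0.0857, adjusted 0.171). On the log2 ratio scale the corresponding values were -0.06, -0.07 and -0.01, with adjusted exact permutation p = 0.72, 0.686 and 0.857. No difference between the members in points or in proportion thus passed its test after adjustment. With 6 tests, even all 3 mCA pairs at the smallest p could not have passed unless mCG pairs reached it too. In points the adjusted test therefore cannot decide whether Tet1 moved further.

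mCG followed another order, with Tet2 highest, Tet1 next and Tet3 lowest in every animal. Tet1 lay below Tet2 in 8 of 8 animals, the difference being -8.76 points ± 1.27 (SD, n = 8). Tet1 was above Tet3 by 3.70 points ± 1.72 and Tet2 above Tet3 by 12.5 points ± 1.42 (SD, n = 8 each). Each exact sign-flip permutation test gave p = 0.0078, before and after adjustment. In WT cortex Tet2 exceeded 64.7% of genes in mCG, Tet1 24.9% and Tet3 17.7%. Tet2 was thus the only one of the 3 above the mean gene in mCG, and Tet1 the only one above it in mCA.

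The genotypes were not separated in mCG. Tet1 held 72.7%, 70.5%, 74.5% and 75.5% in WT replicates 1 to 4 and 69.2%, 67.5%, 73.4% and 72.0% in hKO replicates 1 to 4. Tet2 held 80.5%, 79.7%, 84.1% and 82.7% in WT and 79.4%, 78.0%, 81.6% and 79.6% in hKO. Tet3 held 71.2%, 67.6%, 71.4% and 69.5% in WT and 66.4%, 64.8%, 69.5% and 65.5% in hKO. The groups overlapped in each gene, while 4.94% of all genes had every hKO animal below every WT animal. Females lay above males within each genotype in Tet1 and Tet2, as they did in the mean mCG over all genes.

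Mean mCG differed by -2.77 points in Tet1 (SE 2.07), -2.11 in Tet2 (SE 1.55) and -3.35 in Tet3 (SE 2.05). The limma adjusted p was 0.544, 0.539 and 0.497, and the unadjusted p 0.21, 0.203 and 0.132. No gene of 21060 passed in mCG with limma (0 lower and 0 higher), 0.0% of those tested, and 2124 (10.1%) were lower at an unadjusted p under 0.05, none of them a Tet gene. The hKO mean was below WT in 84.0% of genes and in all 3 Tet genes, although the sign of Tet2 turned to 0.175 points with library medians subtracted. As a percent of the library mean, mCG stood at 96.2% and 95.4% in Tet1, 107.3% and 107.8% in Tet2 and 91.8% and 90.03% in Tet3, WT and hKO in turn. None of these shares differed in the exact permutation test (adjusted p = 0.729 in each).

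Counted per length, the order of the family in mCG turned over. Fractions were multiplied by the sites per base implied by the authors' deposited table, a comparison added after the data had been seen. If that factor counts both strands, each CG counts once per strand. WT Tet3 then carried 19.2 methylated CG sites per 1000 bases ± 0.489, Tet1 17.4 ± 0.521 and Tet2 13.3 ± 0.331 (SD, n = 4 each). In hKO cortex the values were 18.3 ± 0.564, 16.8 ± 0.637 and 12.9 ± 0.239 (SD, n = 4 each). Tet3, lowest by fraction, was highest by methylated sites in 8 of 8 animals, and each pair differed with exact sign-flip permutation p = 0.0078. Methylated CA sites kept the order of the fractions. Per 1000 bases there were 4.04 in WT and 2.26 in hKO Tet1, 2.88 and 1.68 in Tet2, and 2.03 and 1.19 in Tet3.

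**Figure D3:**
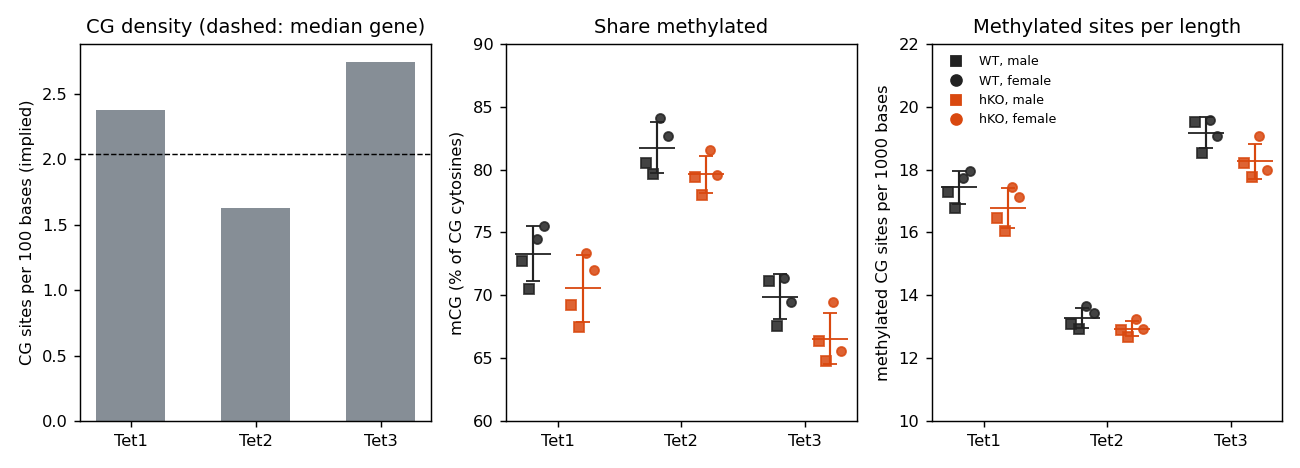
CG sites per 100 bases of each Tet gene implied by the authors' deposited table (left, dashed line at the median gene, 2.04), percent of CG cytosines methylated in each animal (middle, axis from 60) and methylated CG sites per 1000 bases (right, axis from 10); symbols and bars are as in the plot of levels. Tet2 has the highest fraction and the fewest methylated sites per length, and Tet3 the lowest fraction and the most. If the factor behind these sites counts both strands, each CG counts once per strand.

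The genes most like each Tet gene were found over the 16 values of mCA and mCG in 8 animals, each column divided by its SD over 21056 genes. Nearest to Tet1 were Ncald, which encodes the calcium sensor neurocalcin delta, at a distance of 0.32 SD, Fam189a1 at 0.377 and Tmtc1 at 0.388, where the median gene lay at 3.25. Nearest to Tet2 were Jph1, encoding the membrane-junction protein junctophilin, at 0.307, Stau2, encoding an RNA-binding protein of dendrites, at 0.308 and Edil3 at 0.313. Nearest to Tet3 were Ppp3ca, the catalytic subunit of calcineurin, at 0.203, Ank2, a membrane-cytoskeleton adaptor, at 0.337 and Macf1, a microtubule-actin crosslinker, at 0.352. Ppp3ca had hKO means of 0.728% mCA and 66.2% mCG, against 0.755% and 66.5% in Tet3. The Tet genes were not among each other's nearest genes. Tet2 and Tet3 were 2.36 and 2.88 SD from Tet1, at ranks 5844 and 8653 by nearness among 21056 genes. Both were nearer to Tet1 than the median gene, at 3.25. Tet2 and Tet3 were 2.86 SD apart, where the median gene lay 2.71 SD from Tet2 and 3.69 from Tet3.

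Other genes of the demethylation pathway were read against the same background of 72.1% lower in mCA. Among 19 base excision and deamination genes, 16 could be tested and 11 were called lower, with 0 higher. Their median hKO level was 56.5% of WT. Tdg, the glycosylase that removes the products of Tet oxidation, had the lowest WT mCA of the list, 0.795% ± 0.238, and 0.512% ± 0.171 in hKO (SD, n = 4 each), and did not pass (limma adjusted p = 0.111). Parp1, a sensor of strand breaks, had 0.827% and 0.629% and did not pass either (limma adjusted p = 0.167). Tdg changed by -0.283 points (SE 0.149) and Parp1 by -0.198 (SE 0.123), to 64.4% and 76.0% of WT. At such low levels a fall is small in points, so a gene not called is not thereby unchanged. Neil2, another base excision glycosylase, fell from 4.24% to 2.54% (limma adjusted p = 0.00069), and Apobec2, of the deaminase family, from 4.45% to 2.48% (0.0035). Gadd45g (1.04% and 0.568%), Neil1 (0.899% and 0.419%) and Smug1 (3.74% and 2.32%) were the other members not called. Apex1, Gadd45a and Gadd45b lacked a value in at least 1 animal.

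Regulators and suppliers of cofactors were also mostly lower in mCA, as were 72.1% of all genes. Of 20 symbols, which include older and newer names of the same genes, 17 were found and tested, and 14 were called lower and 0 higher, with a median level of 53.9% of WT. Ogt, which encodes the O-GlcNAc transferase that binds Tet proteins, had the lowest WT mCA, 0.512% ± 0.138, and 0.366% ± 0.105 in hKO (SD, n = 4 each; limma adjusted p = 0.248). Mgea5, encoding the enzyme that removes this sugar, had 0.719% and 0.444% (0.128). Neither was called. Cxxc4, whose product binds Tet2, fell from 3.28% to 1.70% (limma adjusted p = 0.00074), and Prdm14, a regulator of pluripotent and germ cells, from 3.95% to 2.38%.

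Among 11 writers and readers of DNA methylation, 8 were called lower and 0 higher, with a median level of 57.1% of WT. Of all genes, 72.1% were called lower. Mbd3 (0.626% and 0.335%) and Mbd1 (0.712% and 0.403%), which encode proteins of the methyl-CG binding family, were not called. Their hKO levels were 53.5% and 56.7% of WT, where the median gene stood at 56.6%. Dnmt3b, a de novo methyltransferase, fell from 4.18% to 2.16% (limma adjusted p = 0.00069) and Dnmt3l, a catalytically inactive partner of these enzymes, from 3.43% to 1.92% (0.0016). Other dioxygenases that use 2-oxoglutarate numbered 44 tested, of which 28 were lower and 0 higher, with a median level of 58.1% of WT. Egln3, an oxygen-sensing prolyl hydroxylase, fell from 5.24% to 2.82% and Plod2, a collagen lysyl hydroxylase, from 4.83% to 2.66% (limma adjusted p = 0.00069 each). Alkbh2, which repairs alkylated DNA, had 0.483% and 0.753% and was not called. Ogfod2 is listed at 0 in all WT animals and averaged 1.71% ± 2.82 in hKO (SD, n = 4), and Kdm5d, which is Y-linked but has a value in the females too, had 1.09% and 1.12%. Alkbh6 stood at 0.851% and 0.836%. No member of these 4 lists passed in mCG, where none of 21060 genes (0.0%) did. With library medians subtracted, 5283 of 21302 genes were lower in mCA. Of the 16, 17, 11 and 44 members tested, in the order of the lists given here, 2, 3, 2 and 10 were lower. As a share of the library mean 0 were lower in each list, and 2 among all genes.

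**Figure D4:**
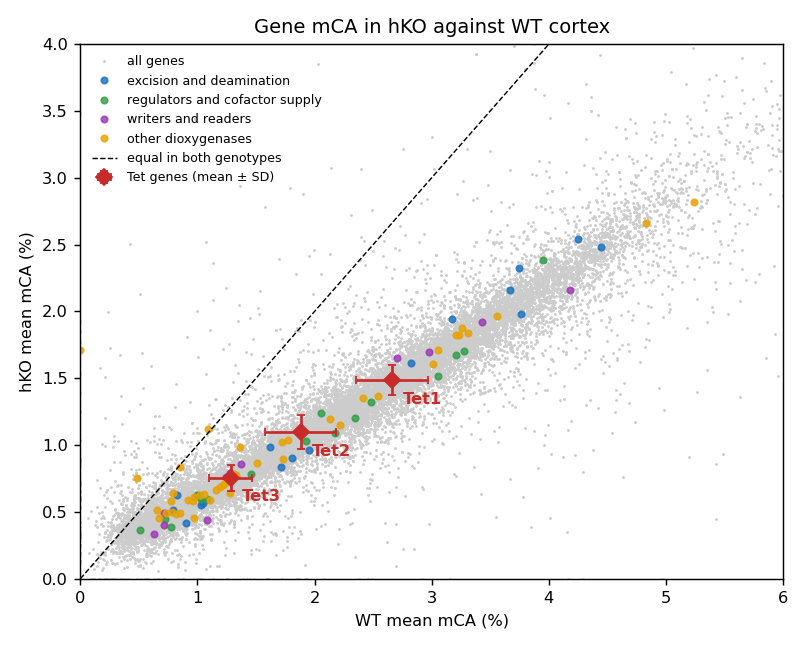
Mean mCA of each gene in hKO (vertical, percent) against WT cortex (horizontal, percent) for 21302 genes in grey, of which 168 lie outside the plotted range, with the 4 lists in colour and the Tet genes as red diamonds with SD bars of 4 animals. The Tet genes lie within the grey band below the dashed line of equality, at 55.9% to 58.8% of WT.

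Some facts of the libraries bear on these values. Mean mCA over all genes was 1.15% to 1.44% in hKO and 2.05% to 2.60% in WT animals, without overlap. Methylation of Dnmt3a does not check its deletion. Among marker genes of cell types, astrocyte markers (4 genes) averaged 3.82% to 4.39% mCA in WT and 2.20% to 2.62% in hKO animals. Markers of inhibitory neurons (3 genes) averaged 1.42% to 2.06% and 0.995% to 1.07%, and those of excitatory neurons (5 genes) 1.38% to 3.598% and 1.61% to 2.73%, WT and hKO in turn. These are methylation levels and do not give the makeup of the tissue, whose part in the Tet differences was not tested. In the RefSeq annotation of GRCm38.p6 the long noncoding gene B230319C09Rik overlaps Tet3 and has its own row, so the rows may share sites. Its mCA was 2.20% ± 0.657 in WT and 1.19% ± 0.477 in hKO (SD, n = 4 each), above that of Tet3.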

How the data were processed

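Bisulfite libraries of 8 cortices (4 hKO, 4 WT) were analysed from a table with 1 row per gene. Each deposited value is the fraction of CA or of CG cytosines read as methylated in a gene, which the authors made with BS-Seeker2 and bedtools on mm9, per the submitters' processing notes; versions, the gene annotation, any coverage filter and any correction for conversion are not given in the sources used here. Fractions were multiplied by 100. The table holds no counts, so the number of cytosines behind a value is unknown and no counting interval was computed; the labels give 6.4 to 7.8 genome equivalents. The authors' 8 group-mean columns served only to obtain sites per base.

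For genes with a value in all 8 libraries, hKO and WT fractions were compared by limma 3.58.1 (R 4.3.3, eBayes with trend), with Benjamini-Hochberg adjustment over all genes and a threshold of 0.05. Single values were compared by exact two-sided permutation in Python 3.11.15, genotype being permuted over animals or signs flipped within animals. The members and lists were chosen with earlier results of these data known. Besides the Tet genes, those named are the 3 nearest to each in pattern and, in each list, the 2 lowest and 2 highest in WT mCA and the members not called (up to 5, otherwise the 2 with the largest adjusted p). Some list members that fall under this rule are not reported here. The fit was tested on simulated data: of 100 mCA values set to 0.5 of their level among 21302 genes it found 49, of 100 set to 1.5 it found 38, with 6 calls among unchanged genes, and of 100 mCG values each set to 0.8 and 0.9 among 21060 genes it found 81 and 22, with 5 such calls. In each context the simulation changed 200 genes, with noise drawn independently per gene and no shift of a whole library. In the real mCA fit 72.1% of genes passed as lower, so the simulated rates do not describe that fit. The labels call tissue donors littermates but give no litters, so the replicate number was not used as a block. Alternatives were a logit scale, library medians subtracted, shares of the library mean, sex as covariate, a block of shared title numbers, each animal left out, each sex alone, no trend and a looser filter.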

Additional observations from a re-analysis of the deposited data

Results flagged for a closer look

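In all, 3 values stood far from the other animals of their group, among 28 groups of 4 that were examined, where chance gives about 1 in 20. The mCA of Tet1 was 3.11% in WT replicate 3 and at most 2.55% in the other WT animals. The mean mCA over all genes was 2.60% in the same library and at most 2.11% in the others, and as a percent of that mean its Tet1 level, 119%, lay within the WT range. The mCA of Tet2 was 83.2% of the library mean in hKO replicate 1, against 88.8% to 89.1% in the other hKO animals.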

How the results depend on the processing

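In points, the mCA falls of Tet1, Tet2 and Tet3 passed limma on a logit scale, with sex as covariate, without trend, with the looser filter, in males alone and without any 1 animal. Leaving out each animal gave -1.25 to -1.02 points in Tet1, -0.9004 to -0.66 in Tet2 and -0.577 to -0.441 in Tet3. With the replicate block of shared title numbers the differences were -1.19, -0.733 and -0.508 points and still passed. That block rests on 3 shared numbers, and the deviations of the animals sharing one correlated at 0.0369 to 0.114 in mCA and 0.0845 to 0.12 in mCG over genes, each WT animal best with its own number, which is only a hint of pairing. In females alone the differences of -1.21, -0.741 and -0.534 points did not pass. With library medians subtracted Tet1 shrank to -0.263 points (limma adjusted p = 0.0166), Tet2 turned to 0.126 points (limma adjusted p = 0.258) and Tet3 to 0.382 (0.003), and as log2 of the share of the library mean the 3 genes gave -0.017, 0.0472 and 0.0561 (adjusted p = 0.972, 0.938 and 0.928). By construction the first removes the same points from genes of any level. In mCG, the Tet2 difference turned to 0.175 points with medians subtracted and to 0.00579 as log2 share, and no setting called a Tet gene; leaving out animals gave -3.72 to -1.75, -2.80 to -1.32 and -4.33 to -2.77 points.

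Genes lower in mCA numbered 5283 with medians subtracted, 2 as log2 share, 7841 in females alone and 13543 to 16024 with an animal left out. Genes higher in mCA, 7 in the fit reported, numbered 6523, 0, 14 with the block, 4 without trend, 54 in males, 27 in females and 3 to 21 with an animal left out. In mCG, lower and higher genes numbered 0 to 1 with an animal left out, and 1 was higher in females alone. The list of other dioxygenases held 10 lower members of 44 tested with medians subtracted, where 5283 of 21302 genes were lower. In females alone the lists of regulators, writers and other dioxygenases held 5, 2 and 11 lower members of 17, 11 and 44 tested. Over all genes in that fit, 7841 of 21302 were lower, so fewer calls were not particular to these lists. The cause was not tested.

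Within WT and within hKO animals alone the member differences could not pass. In mCA they were 0.779 and 0.39 points (Tet1 minus Tet2), 1.38 and 0.731 (Tet1 minus Tet3) and 0.597 and 0.341 (Tet2 minus Tet3). In mCG they were -8.43 and -9.09, 3.41 and 3.99, and 11.8 and 13.1 points. Per 1000 bases the mCG differences turned to 4.01, -1.61 and -5.62 methylated sites. The Tet1 share of mCA turned to 1.45 against the library median and to 0.355 without hKO replicate 3 (range with an animal left out -4.34 to 0.355), and the Tet2 share to -1.64 without WT replicate 4 (-1.64 to 5.47). Differences between members in the change with genotype, none of them called, turned sign in a few cases. Tet1 against Tet3 in mCG ran from -0.254 to 1.46 points, below 0 without WT replicate 1 or hKO replicate 4, and from -0.00236 to 0.0324 as log2 ratio, below 0 without hKO replicate 4. Tet2 against Tet3 in mCA ran from -0.0587 to 0.0243 as log2 ratio, above 0 without WT replicate 1, WT replicate 2 or hKO replicate 4. The depth per gene is unknown, and its part in the values was not tested.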
